A study of Homo sapiens with 32 samples.

Results

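Polysome loading, the abundance of an mRNA in polysomes relative to its abundance in total mRNA, was described here for MCF10A cells treated with PP242, which blocks the mTOR kinase in both of its complexes. The libraries were picked by the cell line, treatment and fraction in their labels, and no measured value entered the rule. They were the 4 polysomal (P) and the 4 total (T) mRNA libraries of MCF10A with PP242 at either oxygen level, 8 of the 32 libraries of the series. They came from cultures numbered 39 and 43 in normoxia with PP242 (NPP) and 40 and 44 in hypoxia with PP242 (HPP), where 39 and 40 are the first replicates and 43 and 44 the second. PP242 was given at 2.5 µM for 3 hours. Hypoxia was 0.5% O2 for 24 hours. The MCF10A cultures without the drug, in normoxia (N, cultures 37 and 41) and hypoxia (H, cultures 38 and 42), received the vehicle DMSO and gave 8 further libraries. All MCF10A medium held EGF, hydrocortisone, cholera toxin and insulin. The 8 PP242 libraries of MDA-MB-231, a triple-negative carcinoma line given the same doses and times, served as the other comparison.

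In a sucrose gradient mRNAs separate by the number of ribosomes they carry, and the polysomal RNA of this study ran from disomes to the heaviest fractions. The mRNAs of ribosomal proteins and of many translation factors start with a cytidine followed by an unbroken run of pyrimidines, the 5′ terminal oligopyrimidine (TOP) motif. When mTOR is active it phosphorylates the 4E-BPs and LARP1, and TOP mRNAs are translated. When it is inhibited, 4E-BPs bind eIF4E, LARP1 binds the capped TOP sequence, and TOP mRNAs leave polysomes. Counts were scaled within each library, so a loading value states where an mRNA stood relative to the average mRNA of the same fraction. A fall of all mRNAs together in polysomes would not be seen.

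The transcription starts of the genes that carry the result are shown first, as windows of 30 bases from the RefSeq promoter table on GRCh38.p14, with 10 bases before the start and 20 from the start on. The unbroken pyrimidine run that opens the transcript is in capitals, and a window without capitals has a purine at its first transcribed base. The first 10 genes were called lower in polysomes under PP242, 7 with a pyrimidine run and 3 (RPS29, YBX1 and EIF4EBP2) without a TOP-like start, and the last 3 were called higher. The windows are examples and not a tally, since only 28.9% of the matched genes called lower had a TOP-like start, as defined below. Outside the lists of TOP and mitochondrial genes the share was 21.4%. It was 3.52% in the genes called higher and 7.35% in all matched tested genes.
RPL12: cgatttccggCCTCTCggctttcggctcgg
RPS12: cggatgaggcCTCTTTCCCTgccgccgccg
RPL39: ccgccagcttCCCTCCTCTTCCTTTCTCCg
TPT1: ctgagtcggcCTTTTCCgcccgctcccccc
EEF1A1: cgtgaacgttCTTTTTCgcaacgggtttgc
EEF2: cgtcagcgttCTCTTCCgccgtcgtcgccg
CCNG1: caggcgcggcCCCTTCggctccgagctgac
RPS29: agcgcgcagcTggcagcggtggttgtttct
YBX1: ctgtcccgccattctcgctagttcgatcgg
EIF4EBP2: gccttcgcccgcttccggtcgtcgtcgtcg
HNRNPAB: cggcattgtcaggcggcggcaccgcgcggg
HSP90B1: cttgcggtgtagtgggcggaccgcgcggct
HSPA5: cggtgaggtcgacgccggccaagacagcac
These windows lie at chr9:127451387-127451416 (minus strand), chr6:132814559-132814588 (plus), chrX:119791611-119791640 (minus), chr13:45341164-45341193 (minus), chr6:73521013-73521042 (minus), chr19:3985444-3985473 (minus), chr5:163437585-163437614 (plus), chr14:49598691-49598720 (minus), chr1:42682408-42682437 (plus), chr10:70404135-70404164 (plus), chr5:178204523-178204552 (plus), chr12:103930400-103930429 (plus) and chr9:125241324-125241353 (minus), in the same order. CCNG1 had 2 listed starts, of which the one with the longer run is shown. The run counted 6 bases in RPL12, 10 in RPS12, 19 in RPL39, 7 in TPT1, EEF1A1 and EEF2, 6 in CCNG1 and 1 in RPS29.

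The 8 libraries held between 31922664 and 41079118 counts, with a median of 36092500. Their labels were checked with CA9, a target of HIF1, which stood at 7.72 to 26.9 CPM (counts rescaled to a common library size) in the 4 NPP libraries and at 569 to 1310 in the 4 HPP libraries. Basal keratins were abundant, with KRT5 at 1589 to 3268 CPM and KRT14 at 640 to 4202. Other basal epithelial markers were nearly absent. CDH1 (E-cadherin) did not exceed 0.361 CPM and TP63 did not exceed 0.225, with no count in 1 and 2 of the 8 libraries, whereas the mesenchymal gene VIM reached 9369 CPM. The summed level of the 12 basal markers was 3834 to 14577 CPM. The 5 mesenchymal markers summed to 2291 to 9894 CPM, and this list was led by VIM, which is in the list of other TOP mRNAs although its RefSeq start is not TOP-like. Leukocyte, endothelial, luminal and fibroblast lists summed to at most 139.8, 1.9, 10.1 and 30.0 CPM. PGR, CD3E and MS4A1 had no count in any of the 8 libraries.

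Some libraries stood apart. The T libraries of cultures 43 and 44 were rich in short mRNAs, with Spearman correlations across genes of −0.58 and −0.38 between transcript length and a gene's deviation from its mean over the 16 MCF10A libraries. In the T libraries of cultures 39 and 40 these values were 0.42 and 0.32. Ribosomal protein mRNAs took 17.4% and 12.5% of all counts in the T libraries of cultures 43 and 44, against 9.73% and 9.11% in those of 39 and 40. P minus T, the difference in log2 CPM between the P and T libraries of a culture, fell with transcript length in cultures 39 and 40 (rho −0.34 and −0.33) and rose with it in cultures 43 and 44 (0.51 and 0.51). Across genes, P minus T correlated at 0.71 between cultures 39 and 40 and at 0.80 between 43 and 44, but at 0.11 to 0.29 across the replicates. Among the cultures without PP242, the P libraries of 37 and 38 were also rich in short mRNAs (−0.47 and −0.43), against 0.25 and 0.31 in those of 41 and 42. Their P minus T fell with transcript length in cultures 37 and 38 (rho −0.54 and −0.59) and had a rho of 0.03 and 0.32 in cultures 41 and 42. These are descriptions over genes of the same libraries. Whether RNA quality or library preparation differed was not tested. Counts of several lists below are also given after a smooth correction for transcript length in each library (the length offset) or without the T libraries of cultures 43 and 44.

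**Figure D1:**
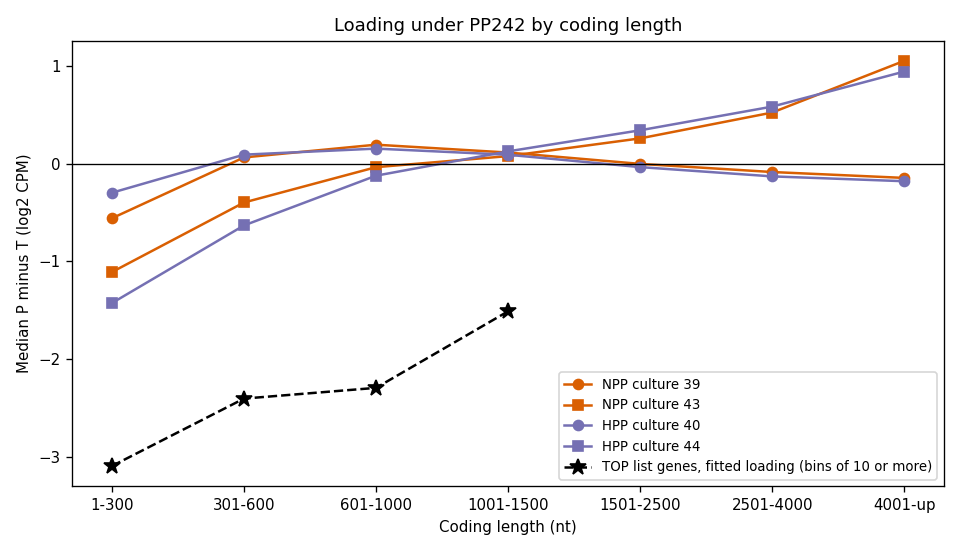
Median P minus T (log2 CPM) of genes outside the TOP and mitochondrial lists, grouped by coding length (nucleotides), with a line for each of the 4 PP242 cultures. Black stars give the median fitted loading of the TOP list genes in bins with 10 or more of them. In genes with over 4000 nucleotides the first replicates stand at −0.14 and −0.18 and the second at 1.05 and 0.94, while TOP list genes lie below the 4 lines in each bin shown.

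Length and the TOP mRNAs were compared within bins of coding length. Among the 1364 genes outside these lists with a coding length of 301 to 600 nucleotides, median P minus T was 0.07 in culture 39, 0.09 in 40, −0.40 in 43 and −0.63 in 44. The 50 TOP list genes of this bin had a median loading of −2.41, where the other genes of the bin had −0.24. Between 601 and 1000 nucleotides 24 TOP list genes had a median of −2.30, where the other 2368 genes had 0.03. At like coding length the TOP list genes had the lower medians. Transcript length was not matched in these bins. Its median was 1105 nucleotides over all TOP list genes and 3288 over all tested genes.

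Which mRNAs were more or less abundant in polysomes than in total mRNA under PP242? Of 13124 protein-coding genes tested over the 16 MCF10A libraries, 401 were higher in P (3.06%) and 715 lower (5.45%) at an adjusted p under 0.05 by the quasi-likelihood test of edgeR. The median loading of all genes was 0.08 on the log2 scale. The called lower genes had a median of −1.50 and the called higher genes 0.72. P lay below T in 4 of 4 cultures for 1976 genes (15.1%) and above it for 2621 (20%). Of the 715 lower genes, 98 belonged to the TOP lists and 12 to the mitochondrial genome. The other 605 were low without PP242 as well, with a median loading of −0.94 there and a median change of −0.47 with the drug. For the 98 TOP list genes these values were 0.17 and −2.48. The 715 lower genes had short coding regions, with a median of 747 nucleotides, against 1320 in the called higher genes and 1398 in all tested genes.

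The number of calls depended on single libraries and on the model. Leaving out the polysomal library of culture 39 left 0 genes higher and 6 lower, and leaving out its total library gave 1496 and 1114. Without the second HPP total library the counts were 17 and 396, without the second NPP polysomal library 285 were lower and the genes higher were 26.4% as many as with all libraries, and without the second HPP polysomal library 38 were higher and 189 lower. The first HPP total library, left out, gave 58 higher, and the second NPP total library 202 higher. With the culture number as a block no gene was called, with a smallest adjusted p of 0.0559 and 3004 genes at an unadjusted p under 0.05. With the length offset 1552 genes were higher (11.8%) and 1433 lower (10.9%), and without the T libraries of cultures 43 and 44, 585 (4.46%) and 842 (6.42%).

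Ribosomal protein mRNAs were less abundant in polysomes than in total mRNA as a group. All 47 mRNAs of the large subunit were called lower in P, against 5.45% of all genes, with a median loading of −2.44, which is a 5.41-fold lower level. Of 32 mRNAs of the small subunit 30 were called lower, with a median of −2.50 or 5.66-fold. The median P minus T of the large subunit list was −1.36 in culture 39, −1.95 in 40, −2.65 in 43 and −3.51 in 44, a mean of −2.37 ± 0.93 (SD, n = 4). For the small subunit list the mean was −2.39 ± 1.00 (SD, n = 4). The second replicates thus lay lower than the first for both oxygen levels. The length offset left 47 and 30 lower, against 10.9% of all genes, with medians of −2.06 and −2.02. Without the T libraries of cultures 43 and 44 the counts were 40 and 29, against 6.42%, and the medians −1.88 and −1.89. Processed pseudogenes of these genes are numerous, and the split of shared reads makes single values uncertain.

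**Figure D2:**
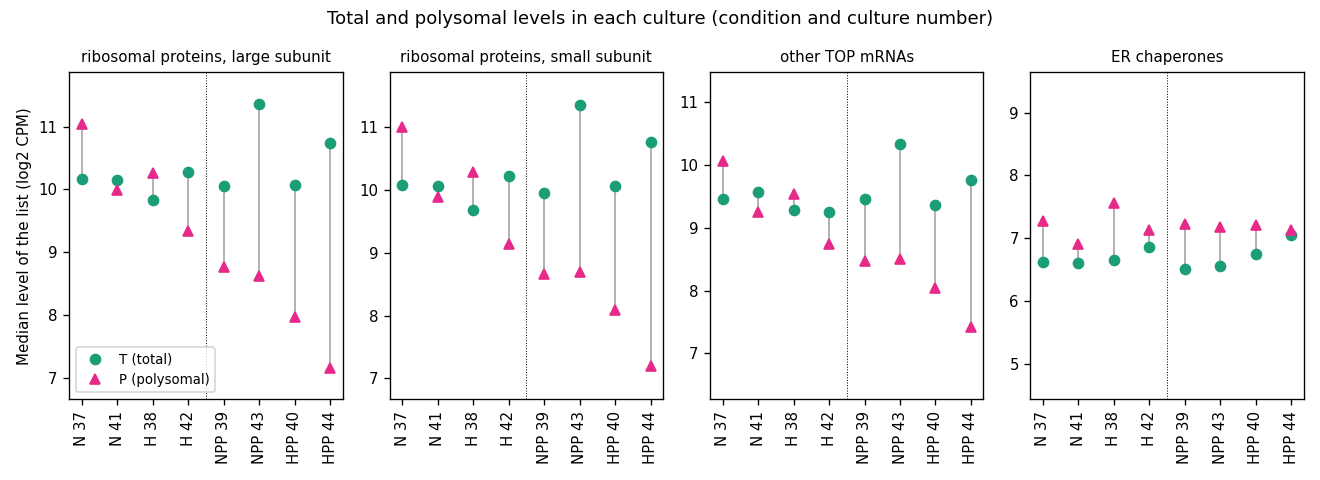
Median level of each gene list (log2 CPM) in total (circles) and polysomal (triangles) mRNA of the 8 MCF10A cultures, labelled by condition and culture number. Each panel spans the same number of log2 units, and the dotted line separates cultures without PP242 from those with it. In the 3 TOP panels the polysomal level lies below the total level in each PP242 culture, and ER chaperones show the opposite order.

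Within this group the sizes differed. RPL12, of the ribosomal stalk base, was lowest. It stood at 1059, 3115, 1133 and 2070 CPM in T of cultures 39, 43, 40 and 44, and at 137, 149, 141 and 56.2 in P. The highest P value lay far below the lowest T value. Its loading was −3.95 ± 0.49 (SE), 15.4-fold lower in P, with an adjusted p of 0.003038 by edgeR. RPL3, the most counted of the large subunit, fell from 2519, 6486, 2534 and 4537 CPM in T to 1491, 1759, 1326 and 649 in P. Its groups did not overlap either, but the loading was smaller, at −1.66 ± 0.37 (SE, adjusted p = 0.02088). RPL15 had the highest loading of the large subunit, −1.49 ± 0.31 (SE). RPL11, a 5S-associated protein that also binds MDM2, had a loading of −2.07 ± 0.38 (SE). In the small subunit RPS12 had the lowest loading (−3.74 ± 0.56, SE). The most counted members RPS2 and RPSA had −2.89 and −2.62. RPS27 (−3.23) and RPS29 (−3.23) were among the 10 lowest called genes with a mean log2 CPM of at least 3, as were RPL39 (−3.37) and the stalk protein RPLP1 (−3.28). RPS15 (−1.18, adjusted p = 0.0905) and FAU (−0.74, adjusted p = 0.248) were not called. FAU, which encodes a fusion of a ubiquitin-like protein and RPS30, was above T only in culture 39, where P minus T was 0.54.

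Of 24 other TOP mRNAs tested, 21 were called lower, against 5.45% of all genes, with a median loading of −1.61 or 3.06-fold. The median P minus T of this list was −0.99, −1.28, −1.75 and −2.41 in cultures 39, 40, 43 and 44, a mean of −1.61 ± 0.62 (SD, n = 4). In every culture this median therefore lay above those of the ribosomal protein lists. TPT1, which encodes the translationally controlled tumour protein, was the lowest of the list. Its level was 2803, 6956, 3598 and 6323 CPM in T and 352, 407, 538 and 200.4 in P of cultures 39, 43, 40 and 44. The loading was −3.72 ± 0.45 (SE), 13.1-fold lower in P. After the length offset the list had 22 lower calls, against 10.9% of all genes, and a median of −1.58. Without the T libraries of cultures 43 and 44 it had 18 lower calls, against 6.42% of all genes, and a median of −1.39.

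Elongation factors had loadings between −2.77 and −1.71. EEF1A1, which brings aminoacyl-tRNA to the ribosome, stood at 14810, 28940, 14020 and 28220 CPM in T and at 3352, 3817, 3581 and 1947 in P. Its loading was −2.77 ± 0.34 (SE, adjusted p = 0.003038), or 6.83-fold lower. The translocase EEF2 had −2.37 ± 0.38 (SE), and EEF1G, EEF1B2 and EEF1D had −2.30, −1.85 and −1.71. Among subunits of eIF3, EIF3L, EIF3F, EIF3H and EIF3E had loadings of −1.89, −1.85, −1.80 and −1.34, all called lower. The helicase EIF4A2 (−0.96) and its partner EIF4B (−1.19) were called lower with smaller values. EIF3G, outside the list, had −0.55 ± 0.34 (SE) and was not called (adjusted p = 0.355). The order of these factors was not tested.

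Other members of the list act outside elongation. The poly(A)-binding protein PABPC1 had a loading of −2.05 ± 0.51 (SE, adjusted p = 0.03059), with P minus T of −3.01, −2.002, −0.56 and −2.10 in cultures 39, 40, 43 and 44. Its weakest value came from culture 43, where T was 339.5 CPM against 1327 in culture 39. YBX1, an mRNA-binding cold shock protein, stood at 798, 1734, 774.6 and 1473 CPM in T and 319, 286, 199.9 and 185 in P, with a loading of −2.30 ± 0.32 (SE). The groups did not overlap. VIM, the intermediate filament vimentin, had −1.51 ± 0.34 (SE). NPM1, HNRNPA1 and NAP1L1, which act in ribosome assembly, splicing and histone transport, had −0.92, −1.07 and −1.36. The cytochrome oxidase subunit COX4I1 (−0.53), TMSB10 (−1.39) and IPO7 (−0.91) were not called.

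**Figure D3:**
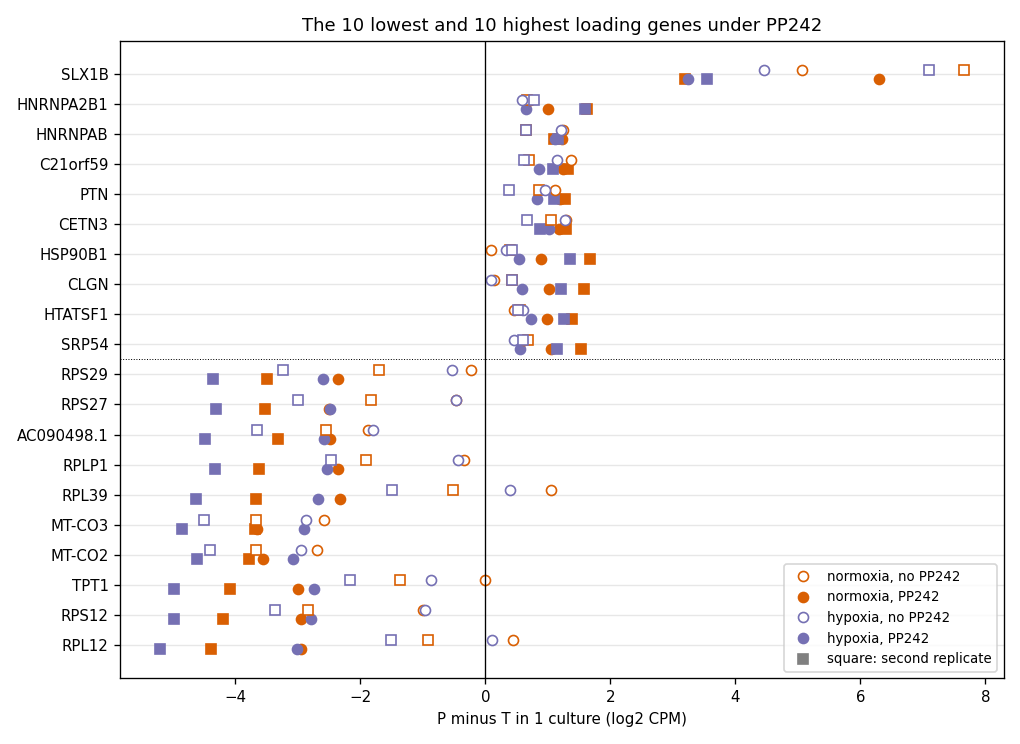
P minus T (log2 CPM) in each of the 8 MCF10A cultures for the 10 lowest and 10 highest genes called under PP242, among those with a mean log2 CPM of at least 3 and the same sign in 4 of 4 cultures. Filled symbols are PP242 cultures, open symbols those without it, and squares second replicates. The filled symbols of MT-CO2 and MT-CO3 lie among or close to their open symbols.

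Few genes were called at a single oxygen level. In NPP alone CCNG1, which encodes cyclin G1, was the only call (0.00762% of tested genes), with a loading of −1.68 and an adjusted p of 0.0472. In HPP alone CCNG1 and CCNI, which encodes cyclin I, were called (0.0152%), at −1.78 and −1.75. At an unadjusted p under 0.05 there were 1997 genes in NPP and 1462 in HPP, and DESeq2 called 768 and 452. CCNG1 stood at 225, 234, 248 and 255 CPM in T of cultures 39, 43, 40 and 44 and at 66.1, 76.8, 77.8 and 68.4 in P, with no overlap. CCNI, a member of the TOP list, ran from 340.1 to 455 CPM in T and from 123 to 172 in P.

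A TOP-like start, defined as a C at the first transcribed base and at least 4 pyrimidines after it, was then looked for at the RefSeq starts. The table held a start for 10530 of the 13124 tested genes. Such a start was found in 61 of 81 matched TOP list genes (75.3%), in 7.35% of all matched tested genes and in 4.07% of all 35116 starts of the table. Outside the TOP lists 713 tested genes had one. Of these, 14.4% were called lower and 12 genes higher, with a median loading of −0.17. Of the 9736 matched genes with another start, 379 (3.89%) were lower and 329 higher, with a median of 0.11. After the length offset 196 of the 713 and 865 of the 9736 genes were lower, against 10.9% of all genes. Higher were 42 and 1270 of them, against 11.8% of all genes. Median coding lengths were 1398 and 1428 nucleotides. Of the 20 TOP list genes with another RefSeq start, 18 were also called lower. A match is a description of annotated bases and does not show that the mRNA in these cells began there.

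The 13 mRNAs of the mitochondrial genome had a median loading of −2.72, and 12 were called lower, against 5.45% of all genes. They are translated by the ribosomes of the organelle, not by cytosolic polysomes, so they mark RNA that does not sediment with polysomes. MT-CO1, a core subunit of cytochrome oxidase, stood at 21520, 22790, 15180 and 19800 CPM in T and at 1737, 3918, 2951 and 894 in P of cultures 39, 43, 40 and 44. Without PP242 their median loading was −2.59 and 11 were called lower, against a background of 160 lower genes (1.22%). MT-ND5 had −1.77 and was not called (adjusted p = 0.0727). The share of mitochondrial mRNAs in the counts was 0.391% to 1.11% in the 4 P libraries and 4.66% to 6.57% in the 4 T libraries.

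Non-coding RNAs were mostly on the low side. In a fit of all gene classes 1285 of 16723 genes were lower (7.68%), and P lay below T in 4 of 4 cultures for 17.7%. Of 29 tested entries for known non-coding RNAs, 19 were lower and 22 lay below T in 4 of 4 cultures. RMRP had 2 of these entries, 1 of them without a count in any PP242 library. The signal recognition particle RNA RN7SL1 stood at 7.05, 18.4, 8.48 and 25.3 CPM in T and at 0.108, 0.148, 0 and 0.232 in P of cultures 39, 43, 40 and 44. The 7SK RNA RN7SK stood at 0.856, 4.85, 1.05 and 10.9 CPM in T and at 0.054, 0.148, 0.109 and 0.348 in P. Both were called lower, but from P values below or a few times above the floor of 3 counts, which is at most 0.0940 CPM, so no fold is given. The TOP-containing snoRNA host genes GAS5 (−2.75), SNHG5 (−3.17) and ZFAS1 (−2.96) were called lower. The nuclear RNA NEAT1 was called lower as well (−2.10, adjusted p = 0.0317), with P minus T of −3.37, 0.19, −2.53 and −1.27 in cultures 39, 43, 40 and 44, so not in every culture. MALAT1 had −1.41 and was not called (adjusted p = 0.269), with P minus T of −2.71 in culture 39 and 1.91 in culture 43. The libraries were selected for poly(A), so RNAs without a tail were measured poorly.

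Ferritin mRNAs carry an iron-responsive element that blocks their translation when iron is scarce. Of the 6 mRNAs tested in the list FTH1 and FTL were called lower, beside 5.45% of all genes, with loadings of −2.79 ± 0.45 (SE) and −3.05 ± 0.47 (SE). FTL stood at 482, 1694, 568 and 1269 CPM in T and at 104.2, 120.1, 151 and 108.2 in P of cultures 39, 43, 40 and 44, with no overlap. Without PP242 their loadings were −1.82 and −1.74 and were not called (adjusted p = 0.0563 and 0.0613). The other 4 mRNAs of this list were not called, and the transferrin receptor TFRC had the highest value, 0.48.

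Among the 10 highest called genes with a mean log2 CPM of at least 3 and P above T in 4 of 4 cultures were HNRNPAB and HNRNPA2B1, which bind pre-mRNA, the growth factor gene PTN, the centrin CETN3 and SRP54, a protein of the signal recognition particle. HNRNPAB stood at 232, 221, 79.4 and 63.5 CPM in T and at 541, 475, 172 and 142 in P of cultures 39, 43, 40 and 44. Its P minus T was 1.22, 1.10, 1.12 and 1.16, and its loading 1.15 ± 0.21 (SE, adjusted p = 0.008205), or 2.22-fold higher in P. The T level was lower in hypoxia, and the ratio of P to T hardly varied. Without PP242 its loading was 0.98, and the change with the drug was 0.18 and not called. SLX1B, an endonuclease subunit with a near-identical copy in the genome, had the highest value of the called genes, 3.83, from only 0.7751 to 5.65 CPM in T, and is uncertain.

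Of 22 ER chaperones 6 were called higher, against 3.06% of all genes, and none lower, with a list median of 0.44. Without PP242 the list median was 0.44 as well, with 1 gene called higher, against 0.411% of all genes. The median change with the drug was 0.23, and no gene of the list was called for it. In cultures 39, 40, 43 and 44 the list stood at 0.73, 0.49, 0.53 and 0.66. HSP90B1, the ER form of HSP90, stood at 974, 547, 1179 and 863 CPM in T and at 1806, 1750, 1715 and 2200 in P of cultures 39, 43, 40 and 44, with no overlap. Its loading was 1.08 ± 0.22 (SE, adjusted p = 0.0128). HSPA5 (BiP, 1.03), the disulphide isomerases PDIA3 (1.01) and PDIA6 (0.86), DNAJB11 (0.86) and ERP44 (0.69) were called as well. P4HB, also a disulphide isomerase and the most counted of the list, had −0.17 and was not called. Under the length offset 9 were higher, against 11.8% of all genes, and without the T libraries of cultures 43 and 44, 6, against 4.46%.

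Of 30 mitotic genes 6 were called higher, against 3.06% of all genes, and none lower (median 0.54). They were the kinetochore genes NUF2 (0.93) and NDC80 (0.92), the kinases NEK2 (0.83) and CDK1 (0.77), the kinesin KIF20A (0.67) and the cyclin CCNA2 (0.64). P lay above T in 4 of 4 cultures for 20 of the 30, against 20% of all genes. With the length offset 14 of the 30 were higher, against 11.8% of all genes. Without the T libraries of cultures 43 and 44 the median was 0.36 and 1 gene was called higher, beside 4.46% of all genes, so the count then lay near the share of all genes. Of 38 replication genes 3 were higher, beside the same 3.06%, namely PCNA (0.97 ± 0.21, SE), MCM6 (0.81) and FEN1 (0.71), with a list median of 0.35. PCNA, the sliding clamp, stood at 258, 386, 91.9 and 116 CPM in T and 695, 549, 191 and 223 in P of cultures 39, 43, 40 and 44, where P was above T within each culture but the groups overlapped across oxygen levels.

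Of 33 proteasome subunits 3 were called higher, again beside 3.06% of all genes, among them the ATPase PSMC2 (0.80 ± 0.17, SE), and the list median was 0.46. Without PP242 the list median was higher, at 0.88, also with 3 genes called higher, against 0.411% of all genes. The median change with the drug was −0.45, or −0.02 with the length offset. The list depended on the replicate. It stood at 1.08 and 0.66 in cultures 39 and 40 but at 0.12 and 0.04 in cultures 43 and 44, and with the length offset 23 were higher, against 11.8% of all genes. Matrix and adhesion genes, with a median coding length of 4827 nucleotides, had the opposite order, at 0.38 and −0.15 in cultures 39 and 40 and 1.16 and 1.13 in cultures 43 and 44. None of these 37 genes was called, at a median of 0.57, and 7 were higher with the length offset, beside the same 11.8%. ITGB3, the integrin β3 subunit, had a loading of 0.11 ± 0.60 (SE), with P minus T of −0.82, −0.80, 1.51 and 1.14 in cultures 39, 40, 43 and 44.

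Nuclear respiratory chain genes had a median of −0.02 with 2 of 75 higher and 4 lower, close to the shares over all genes (3.06% and 5.45%). Without PP242 their median was 0.82. The median change with the drug was −0.86, or −0.06 with the length offset. In cultures 39, 40, 43 and 44 the list stood at 0.85, 0.39, −0.34 and −0.81, so its sign followed the replicate, and with the length offset the median was 0.44. With that offset 38 of the 75 were higher and 11 lower, against 11.8% and 10.9% of all genes, and without the T libraries of cultures 43 and 44, 10 were higher and 1 lower, against 4.46% and 6.42%. ATP5E, a small subunit of ATP synthase, was lowest (−2.62) and NDUFS1 of complex I highest (0.84). Mitochondrial ribosomal proteins, whose mRNAs are not TOP mRNAs, had a median of 0.20, with 2 of 77 higher and 1 lower beside the same shares. Without PP242 their median was 0.75. The median change with the drug was −0.56, or −0.14 with the length offset. The lowest gene was MRPL33 (−1.52). In cultures 39, 40, 43 and 44 this list stood at 0.83, 0.43, −0.12 and −0.34, so here too the sign followed the replicate. Without the T library of culture 40 its median was −0.015. With the length offset 29 were higher and 5 lower, against 11.8% and 10.9% of all genes.

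Of 30 initiation factors outside the TOP list, EIF4EBP2 (−1.84 ± 0.29, SE) and EIF4EBP1 (−1.79 ± 0.49, SE), which encode 4E-BPs, were called lower, and EIF3B (0.64) was called higher, against 5.45% of all genes lower and 3.06% higher. The list median was 0.21. EIF4EBP2 stood at 61.8, 32.3, 58.7 and 40.2 CPM in T and 10.9, 13.4, 17.5 and 12.2 in P of cultures 39, 43, 40 and 44, with no overlap. EIF1 had −1.13 and was not called (adjusted p = 0.0532), and EIF4A1, the most counted, had −0.36. In the mTOR pathway list, which holds the same 2 genes, LAMTOR1 (−1.46), a part of the lysosomal anchor of mTORC1, was the third of 3 lower calls among 27, and the median was 0.02, or −0.10 with the length offset.

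Of 14 mRNAs known for high dependence on eIF4E none was called, where 3.06% of all genes were higher and 5.45% lower, so the count is too small to set the list apart from other genes. Its median was 0.12. MYC had 0.24 ± 0.20 (SE), at 374, 536, 353 and 446 CPM in T and 605, 487, 360 and 568 in P of cultures 39, 43, 40 and 44, which overlap. CCND1, cyclin D1, had 0.12 ± 0.29 (SE), and ODC1, of polyamine synthesis, the lowest value, −0.74. Of 17 mRNAs with upstream reading frames that are translated under stress, 1 was called lower, beside 5.45% of all genes, and the median was −0.15, which turned to 0.16 without the T libraries of cultures 43 and 44. ATF4, the transcription factor of the integrated stress response, had −1.37 ± 0.40 (SE, adjusted p = 0.0554). It stood at 515, 939, 582 and 802 CPM in T and at 276, 258, 399.9 and 165 in P, without overlap.

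The counts of the other lists are to be read against 3.06% of all genes higher and 5.45% lower. Of 22 glycolytic genes PGK1 was called higher (0.85). GAPDH, the most counted, had −1.50 ± 0.44 (SE, adjusted p = 0.0558), with P minus T of 0.03, −0.89, −2.10 and −2.18 in cultures 39, 40, 43 and 44. Of 25 HIF1 targets ADM (0.63) and P4HA2 (0.62) were higher, and CA9 had 0.97 (adjusted p = 0.0525). Of 28 immediate early genes JUN (0.74) and IER5 (0.59) were higher and ZFP36, which destabilises AU-rich mRNAs, lower (−1.07). Of 420 genes named ZNF, 3 were higher and 13 lower (median −0.13). In cultures 39, 40, 43 and 44 this list stood at −0.48, −0.31, 0.31 and 0.22, so its sign followed the replicate. Without the T library of culture 39 its median was 0.12. The length offset gave 52 lower, against 10.9% of all genes, and leaving out the T libraries of cultures 43 and 44 gave 58, against 6.42%, with a median of −0.43. Of 41 replication-dependent histones 2 were lower (median −0.18). The sign of this median turned with the length offset, at 0.74 with 6 genes higher and none lower beside 11.8% and 10.9% of all genes, and without the T libraries of cultures 43 and 44, at 0.55. These mRNAs lack the poly(A) tail on which the libraries were selected.

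Did loading under PP242 differ from loading without it? Without PP242, 54 genes were higher in P (0.411%) and 160 lower (1.22%). The median loading of the large subunit list was 0.21 without PP242 and −2.44 with it, and of the small subunit list 0.15 and −2.50. The median P minus T of the large subunit list was 0.99, −0.09, 0.55 and −0.92 in cultures 37, 41, 38 and 42. The highest of the 4 PP242 cultures, −1.36, lay below the lowest of these, −0.92. The drug contrast of ribosomal protein genes had medians of −2.62 and −2.52, that is 6.17-fold and 5.75-fold lower. For the other TOP mRNAs the median was −1.52, 2.87-fold lower. For mitochondrially encoded mRNAs it was −0.12, and its sign turned with the length offset, at 0.52. The values of 0.99 and 0.55 came from the cultures whose P libraries were rich in short mRNAs. Without these P libraries the medians of the drug contrast were −1.95, −1.91 and −1.39 for the 3 TOP lists, and without the T libraries of cultures 43 and 44 as well, −1.31, −1.30 and −1.001. No gene was called in either case, and 45 of 47, 26 of 32 and 19 of 24 genes, then 38, 22 and 19, were lower at an unadjusted p under 0.05, against 247 of 13431 and 470 of 13426 genes tested in these fits.

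**Figure D4:**
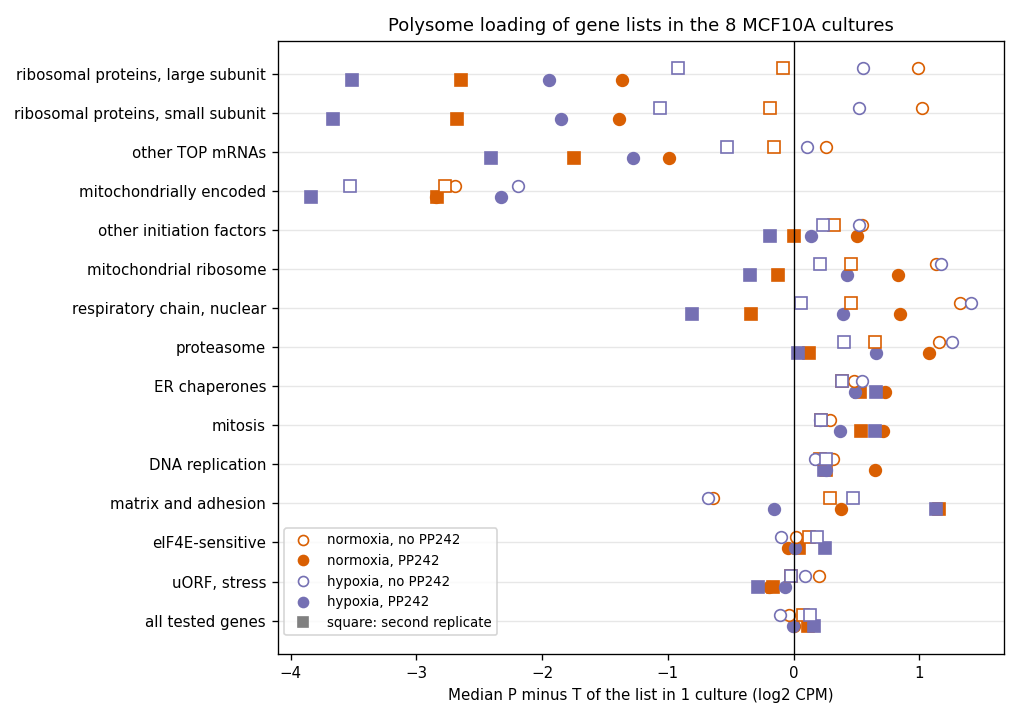
Median P minus T (log2 CPM) of 14 gene lists and of all tested genes in the 8 MCF10A cultures. Filled symbols are PP242 cultures, open symbols cultures without it, orange normoxia, purple hypoxia, and squares second replicates. For the 3 TOP lists all 4 filled symbols lie left of all 4 open symbols, whereas they are mixed for mitochondrially encoded mRNAs.

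No gene was called for this drug contrast by edgeR, with a smallest adjusted p of 0.0964. At an unadjusted p under 0.05 there were 700 genes, 556 of them lower with PP242, and DESeq2 called 1.35% of genes lower and 0.00762% higher. At the unadjusted level 46 of 47 large subunit, 32 of 32 small subunit and 20 of 24 other TOP mRNAs were included. All 4 PP242 values lay below all 4 others in 34 of 47, 22 of 32 and 16 of 24 genes of these lists, against 307 of all tested genes (2.34%). All 4 lay above in 314 genes (2.39%), and in none of these 3 lists. With the length offset 123 genes were lower (0.937%) and 1 was higher (0.00762%). Of the lower genes 40 were large subunit, 25 small subunit and 11 other TOP mRNAs, and the medians of the lists were −1.88, −1.70 and −1.39. With the culture number as a block beside the length offset, 25, 16 and 2 genes of these lists were lower, against 0.411% of all genes. Without this offset the T library of culture 39, left out, gave 0.789% of genes lower and 0.0149% higher.

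RPL12 had P minus T of −2.95 to −5.20 in the 4 PP242 cultures and of −1.51 to 0.44 in the others, and its drug contrast was −3.57 ± 0.63 (SE, adjusted p = 0.0964). RPL11 had −1.06 to −3.20 and −0.73 to 1.18. EEF1A1 had −1.97 to −3.86 with PP242 and −1.06 to −0.02 without it, a contrast of −2.22 ± 0.46 (SE). Without PP242 and without the length offset, RPL41 was the only ribosomal protein mRNA called lower (−2.03, adjusted p = 0.0470 by edgeR). RPS12 stood at −1.81, and RPS28, RPS21, RPS27, RPS29 and RPLP1 between −1.40 and −1.13, none of them called. These 7 had the lowest loadings of the ribosomal protein lists without PP242, so they do not stand for the lists. After the length offset all 7 were called lower without PP242, among them RPS12 (−2.17), RPS27 (−1.45) and RPS29 (−1.36). Over all 13124 tested genes, too, the offset gave more lower calls without PP242 than the 160 (1.22%) found without it. These lower calls were fewer than the 854 higher calls of the same fit. In that fit the median loadings without PP242 were −0.05 for the large and −0.08 for the small subunit list. In the fit with the length offset the drug contrasts of RPS12 (−0.77), RPS27 (−0.67) and RPS29 (−0.61) were not called, with adjusted p of 0.334, 0.171 and 0.225 by edgeR. PABPC1 overlapped between the groups, at −0.56 to −3.01 and −0.29 to −2.18. HSP90B1 was the reverse case, with 0.54 to 1.68 under PP242 and 0.09 to 0.42 without it, and a contrast of 0.78 ± 0.30 (SE) that was not called.

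Of the 123 genes lowered by PP242 with the length offset, 47 lay outside the TOP lists. The genes named here were chosen after their values were seen. They are single genes, and whether they share functions was not tested. Among the 47 were the ribosomal protein paralog RPL22L1 (−2.97), PABPC4 (−1.33), the ribosome biogenesis factor NSA2 (−2.15) and BTF3 (−1.22), which binds nascent chains. So were the ADP/ATP carriers SLC25A5 (−1.78) and SLC25A6 (−1.76), AHCY (−1.73), IMPDH2 (−1.29), MTHFD2 (−1.35) and GAPDH (−1.85). EIF4EBP2 (−1.27), CCNG1 (−0.91), TOMM20 (−1.14) and YBX3 (−1.19) were among them too. With the culture block beside the offset 10 of the 47 were called lower. These were RPL22L1, SLC25A5, NME2, RGS10, KIAA0101, PCBP2, CHP1, RAB13, PFDN5 and ATP5G2. The other genes named here had adjusted p by edgeR between 0.0903 and 0.204, with log2 values close to those without the block. A TOP-like RefSeq start was found in 21 of the 39 that could be matched, or 53.8%.

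The oxygen level did not give a call. For the difference between HPP and NPP in loading 0 genes passed the threshold of edgeR, 35 had an unadjusted p under 0.05, and DESeq2 called 0. Ribosomal protein lists were lower in HPP within each replicate, at −1.95 against −1.36 in the first and −3.51 against −2.65 in the second for the large subunit, and the median contrast was −0.60. Without PP242 the hypoxic cultures also lay lower, at 0.55 against 0.99 and −0.92 against −0.09. CCNI had the lower loading in HPP, −1.75 against −1.19, with an unadjusted p of 0.0945. Each side held 2 cultures.

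Loading under PP242 was last set beside that of MDA-MB-231 in a joint fit of 32 libraries with 14298 genes. Under PP242 the ribosomal protein lists lay below 0 in both lines. The large subunit list stood at −1.45, −1.95, −2.72 and −3.55 in MCF10A cultures 39, 40, 43 and 44 and at −0.90, −1.40, −0.95 and −1.24 in MDA-MB-231 cultures 67, 68, 83 and 84, without overlap. The small subunit list overlapped between the lines. Median loadings were −2.50 and −1.14 for the large subunit and −1.67 and −0.70 for other TOP mRNAs. None of these genes was called between the lines. After the length correction 27 of 47 large subunit, 17 of 32 small subunit and 5 of 24 other TOP mRNAs were higher in MDA-MB-231, against 86 of all genes (0.601%). Mitochondrially encoded mRNAs had −2.78 in MCF10A and −2.76 in MDA-MB-231.

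**Figure D5:**
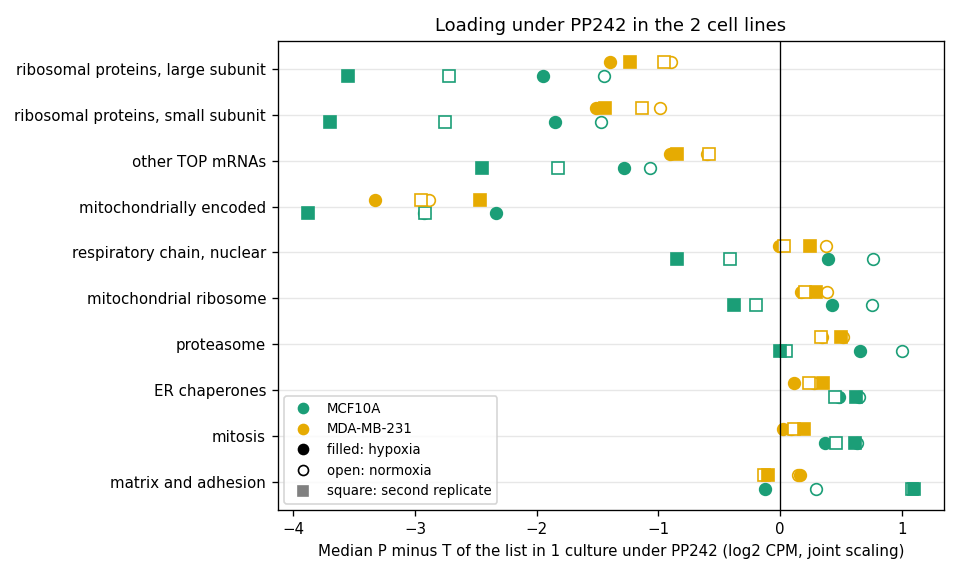
Median P minus T (log2 CPM after joint scaling) of 10 gene lists under PP242 in the 4 cultures of MCF10A (green) and the 4 of MDA-MB-231 (yellow). Filled symbols are hypoxia, open symbols normoxia, and squares second replicates. The large subunit values of MDA-MB-231 lie between −1.40 and −0.90, to the right of those of MCF10A, and the 4 MCF10A cultures spread more widely.

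Of the genes called between the lines, 4 were higher in MDA-MB-231 (0.028%) and 3 lower (0.021%), and 997 had an unadjusted p under 0.05. PON2, a paraoxonase, had P minus T of 0.50, 0.36, 0.05 and −0.01 in MCF10A cultures 39, 40, 43 and 44 and −1.97, −2.08, −1.61 and −1.87 in MDA-MB-231. The difference was −2.11 ± 0.27 (SE, adjusted p = 0.000732 by edgeR). TOMM20, a receptor of the mitochondrial outer membrane with a TOP-like start, had −1.23, −1.08, −0.94 and −1.75 in these MCF10A cultures and −0.31 to 0.07 in MDA-MB-231, a difference of 1.07 ± 0.18 (SE, adjusted p = 0.0281). MTHFD2, of mitochondrial folate metabolism, differed by 0.76 ± 0.14 (SE, adjusted p = 0.0449). Leaving out the T library of MCF10A culture 39, 738 genes were called between the lines, and without other libraries 3 to 7.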

How the data were processed

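RNA-Seq of total (T) and polysome-bound (P) mRNA was read from tables of expected counts that the authors deposited without normalisation and as whole numbers, 1 column per library. The authors mapped poly(A)-selected reads with STAR and estimated counts with RSEM on GENCODE gene models for GRCh38. The submitters' processing notes list GRCh37, but the gene identifiers are those of the GRCh38 annotation. RSEM divides reads that match several genes among them, and strand was not stated. Columns without a sample numbered 0.

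The tools were edgeR 4.0.16 and DESeq2 1.42.0, run in R 4.3.3. The 16 MCF10A libraries were fitted in 8 groups with TMM scaling after filterByExpr on protein-coding genes, and contrasts were tested by the quasi-likelihood test with Benjamini-Hochberg adjustment over all genes, called at an adjusted p under 0.05. The biological coefficient of variation was 0.325, with 8 residual degrees of freedom. P minus T is the difference in log2 CPM (prior count 2) between libraries with the same culture number. The fit was tested on simulated data. Floors and errors cover counting and replicate spread only. A floor of 3 counts corresponds to at most 0.0940 CPM in these libraries. The labels call the replicates biological.

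Named genes were the 10 highest and 10 lowest called genes with a mean log2 CPM of at least 3 and the same sign in 4 of 4 cultures, up to 5 in each direction for contrasts of oxygen and line, the 2 most counted, highest and lowest members of each list, and fixed markers. Of the called genes, 903 met the first rule. The rule for the drug contrast found 0 genes. The comparison, its members and the gene lists were chosen with earlier results of these data known. Transcript lengths came from GENCODE v44 canonical transcripts (99.6% of genes) and starts from RefSeq, read with Python 3 and pandas.

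T and P libraries whose titles share a culture number were taken as a pair. The differences between replicates in T and P correlated at −0.10, −0.25, 0.02 and 0.21 in N, H, NPP and HPP. The data thus did not show a shared culture effect, but so few differences cannot exclude it. The block for culture was run as an alternative. Other alternatives were DESeq2, RLE factors, library totals, TMM without ribosomal protein and mitochondrial genes, no filter, all gene classes, an absolute log2 value of at least 1, a block for replicate within each fraction, the 8 PP242 libraries alone, and each library left out. The length offset (lowess, span 0.3), its use with the culture block, leaving out the second PP242 total libraries, and leaving out the first polysomal libraries without PP242 with and without them were added after the data were seen.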

Additional observations from a re-analysis of the deposited data

Results flagged for a closer look

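The median P minus T of the 21 gene lists and of the 20 genes named for the loading contrast was searched over the 4 PP242 cultures for a value far from the other 3. Chance gives such a value in about 1 of 20 groups. In the DNA replication list culture 39 stood at 0.648 and the others at 0.239 to 0.262, a gap of 0.943 of the range. SLX1B had 6.30 in culture 39 against 3.19 to 3.55, a gap of 0.885 of the range, on a T level of only 0.7751 CPM there.

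The mTOR pathway list lay above 0 in both NPP cultures (0.07 and 0.05) and below 0 in both HPP cultures (−0.02 and −0.03), a difference of −0.0843 in the means that was not tested. The loading of PON2 was lower in MDA-MB-231 than in MCF10A by the interaction test of the joint fit (−2.11), and that of TOMM20 (1.07) and MTHFD2 (0.765) was higher.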

How the results depend on the processing

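The medians of the 3 TOP lists and of the mitochondrially encoded list kept their sign under every alternative run, from −2.70 to −1.88 for the large subunit, −2.76 to −1.89 for the small subunit, −1.90 to −1.35 for other TOP mRNAs and −3.33 to −2.47 for mitochondrial mRNAs. Numbers of calls did not hold. Genes higher and lower in P numbered 705 and 1236 with DESeq2, 942 and 1285 with all gene classes, 1493 and 1353 with the replicate block within each fraction, 5 and 172 with only the 8 PP242 libraries, 1552 and 1433 with the length offset, and 1447 and 1256 with the culture block and the length offset. Genes higher numbered 224 with RLE factors, 1608 with library totals, 93 without a filter and 21 at an absolute log2 value of at least 1. With library totals the median of all genes moved to 0.26 and 70.4% of calls were higher. With the replicate block by culture there were 0 calls in each direction and for NPP and HPP, although all 1116 genes called without a block were called with the block within each fraction. Leaving out each library gave 0 to 1496 genes higher, 6 to 1114 lower, 0 to 1136 in NPP, 0 to 191 in HPP, 0% to 0.789% lower and 0% to 0.0149% higher for the drug contrast, and 3 to 738 for the line difference. Calls in NPP and HPP numbered 768 and 452 with DESeq2, 2 and 5 with RLE, 533 and 425 with library totals, 159 and 177 without a filter, 55 and 185 with all classes, 853 and 513 with the block within fractions, 0 and 0 with the 8 libraries, 1217 and 750 with the length offset, and 597 and 339 with block and offset. In NPP 2 were called without the T libraries of cultures 43 and 44. For the drug contrast 1.35% of genes were lower and 0.00762% higher with DESeq2, 0.937% and 0.00762% with the length offset, and 0.328% were lower without a filter, 1.13% with the block within fractions and 0.411% with block and offset. The line difference gave 113 calls with DESeq2, 4 with library totals and 113 with the length offset. The cause was not tested. The oxygen difference gave 0 calls throughout.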
